A study of Solanum lycopersicum with 27 samples.

Results

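Of the 34075 genes measured in tomato (Solanum lycopersicum) fruit, 174 made up the set described here. They were selected on measured levels. Their mean level was higher at 34 than at 25 days post anthesis (dpa), the age of the fruit counted from flower opening, both in the double mutant rin/tdr4-1 and in wild type (WT). The rule asked for a stage rise of at least 1 on the log2(mean FPKM + 1) scale in both genotypes. It left out genes that were lower by more than 1 in the single mutant tdr4-1 than in WT at 34 dpa. FPKM count the sequenced fragments of a gene relative to transcript length and to the total mapped. Adding 1 lets genes at 0 FPKM be placed on the log2 scale.

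The fruit came from the cultivar Ailsa Craig, grown without treatment, and 27 libraries fell into 9 groups of 3. The mutant dml2-3 was sampled at 34 and 25 dpa, as were rin/tdr4-1 and WT. The single mutants rin-1, nor-1 and tdr4-1 were sampled at 34 dpa only, so their stage rise was not measured. The labels call 34 dpa the breaker stage for every genotype, the ripening mutants included, so that the stages are ages of fruit. They give whole fruits as the tissue and do not say how the mutant alleles were made or whether replicates came from separate plants, and p-values therefore measure only the spread between libraries.

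The tomato proteins RIN and TDR4 belong to the MADS-box family of transcription factors and act at the onset of ripening, when a fruit starts to make ethylene, lose chlorophyll, gather lycopene and soften. NOR is a NAC transcription factor of the same network. DML2 is a DNA demethylase, which takes methyl groups off cytosines, and tomato fruit without it ripens poorly. No identifier in the table was paired with a gene name, so the members are given by identifier, the transcripts of the mutated genes were not identified, and fruit markers were not checked.

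How deeply each library was sequenced is unknown, since FPKM do not retain the number of reads. The columns summed to between 863193 and 1122755 FPKM. Libraries of a group correlated across genes with Pearson's r of at least 0.981 in 8 of the 9 groups. The exception was dml2-3 at 25 dpa, with a lowest r of 0.916, where replicate 3 stood apart. Among the members, replicate 3 was 1 or more below both other libraries of that group on the log2 scale for 83 genes, and 1 or more above both for 12. Replicates 1 and 2 of that group differed by 1 or more for 2 members only. Counts of members and named genes that rest on dml2-3 at 25 dpa are therefore given with and without replicate 3. The counts of members that stood apart in a single library, here and below, were not taken over all genes tested. Whether the lean of replicate 3 is particular to the members was thus not measured.

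The values in this paragraph chose the members and are a description. A stage rise of 1 or more was seen for 1100 genes in rin/tdr4-1 (3.23% of all) and for 1083 in WT (3.18%). Both rises were met by 196 genes, 0.575% of all. These were 17.8% of the rises in rin/tdr4-1 and 18.1% of those in WT. Lower levels in tdr4-1 removed 22 of them. The median stage rise of the members was 1.51 in rin/tdr4-1 (quartiles 1.23 and 2.29, highest 5.19) and 2.16 in WT (quartiles 1.44 and 3.84, highest 11.10). The rise was larger in WT for 126 members and larger in rin/tdr4-1 for 48. It reached 2 in both genotypes for 36 members. The 3 members nearest the threshold had smaller rises of 1.001, 1.002 and 1.004, and the 3 nearest genes outside it had 0.995, 0.989 and 0.986. At the other threshold, the members lowest in tdr4-1 differed from WT by -0.952 and -0.930, and the nearest genes left out by -1.004 and -1.014. All 34 dpa libraries lay above all 25 dpa libraries for 170 members in rin/tdr4-1, as for 37.5% of all 18906 genes tested. The same held for 172 members in WT, as for 15.1% of all genes tested. Below, percentages in brackets after counts of members are shares of all genes tested meeting the same condition, unless another base is named. All 174 members had at least 1 FPKM in at least 3 libraries and entered the tests.

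**Figure D1:**
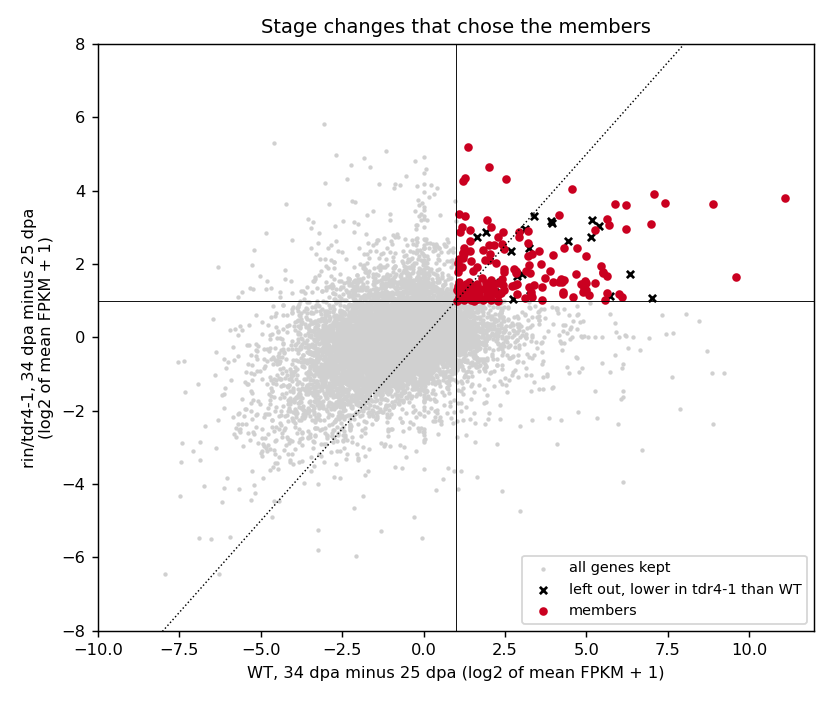
Stage change of each gene in WT (x axis) and in rin/tdr4-1 (y axis), as the log2 of mean FPKM + 1 at 34 dpa minus that at 25 dpa. Red points are the 174 members, crosses the 22 genes left out, grey points the genes tested, and the dotted line marks equal changes. Most members, 126, lie below the dotted line.

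The 2 members with the largest value of the smaller rise were Solyc10g078770.2 and Solyc07g062670.1. In rin/tdr4-1, Solyc10g078770.2 had 3.58, 17.3 and 73.1 FPKM at 34 dpa, against 0.56, 0.61 and 1.65 FPKM at 25 dpa. In WT it had 119, 62.4 and 114 FPKM at 34 dpa, against 3.71, 1.57 and 4.42 FPKM at 25 dpa. The stages did not overlap in either genotype, but the libraries of rin/tdr4-1 at 34 dpa were far apart, with replicate 3 the highest. Solyc07g062670.1 had 15.6, 20.1 and 19.4 FPKM at 34 dpa in rin/tdr4-1, against 0.85, 0 and 0 FPKM at 25 dpa. In WT it had 145, 113 and 139 FPKM at 34 dpa and was listed at 0 in all 3 libraries at 25 dpa. Its level in the double mutant was even between replicates and well below that of WT. Of all members, 5 were 1 or more above both other libraries in replicate 3 of rin/tdr4-1 at 34 dpa, and 167 of the 174 still met the rise in rin/tdr4-1 without that library.

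Across the other genotypes at 34 dpa the members were high in tdr4-1, intermediate in nor-1 and rin-1 and lowest in dml2-3. The median member, on the log2(FPKM + 1) scale, was at 3.84 to 3.89 over the libraries of dml2-3 and at 5.01 to 5.04 over those of rin/tdr4-1. It was at 4.83 to 4.89 in rin-1, 5.10 to 5.12 in nor-1 and 6.02 to 6.10 in tdr4-1, against 5.854 to 6.001 in WT. In this median no library of dml2-3 overlapped another genotype at 34 dpa. The rule removed genes lower in tdr4-1, so the place of tdr4-1 near WT is partly set by the choice of members. At 25 dpa it was at 5.15, 5.10 and 3.99 in replicates 1, 2 and 3 of dml2-3, at 3.22 to 3.27 in rin/tdr4-1 and at 3.02 to 3.16 in WT. Replicates 1 and 2 of dml2-3 at 25 dpa thus lay just above rin/tdr4-1 at 34 dpa, and replicate 3 just above dml2-3 at 34 dpa. Since fruits were sampled whole, fewer cells of a type and less RNA per cell cannot be told apart.

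**Figure D2:**
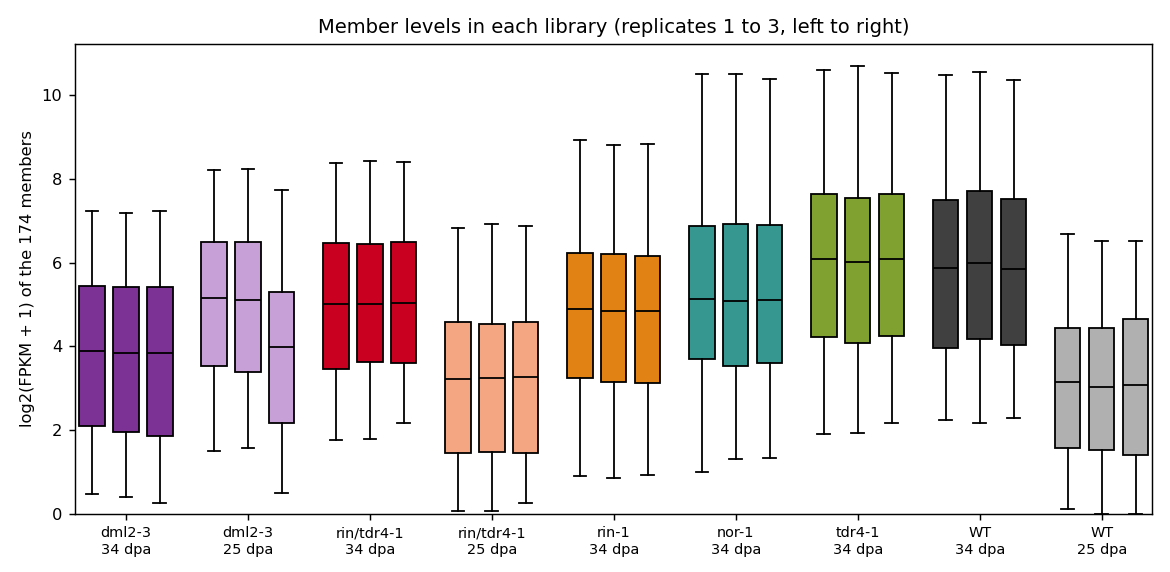
Levels of the 174 members, as log2(FPKM + 1), in each of the 27 libraries, with the replicates 1 to 3 of a group side by side. Boxes span the quartiles with the median as a line, and whiskers the 5th to the 95th percentile. Replicate 3 of dml2-3 at 25 dpa has a median of 3.99, against 5.15 and 5.10 in its group.

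The WT libraries at 34 dpa helped to choose the members. Compared with them, group means were lower by 1 or more for 120 members in dml2-3, 69.0% of the members. Of all genes tested, 7.08% were. The counts were 68 members in rin/tdr4-1 (5.43% of all genes tested), 94 in rin-1 (5.42%) and 72 in nor-1 (5.74%). The count is 0 in tdr4-1 by the rule. Group means were higher by 1 or more for 8 members in dml2-3 (26.3%) and 19 in rin/tdr4-1 (26.8%). These were 15 in rin-1 (19.7%), 20 in nor-1 (13.1%) and 18 in tdr4-1 (3.99%). The median difference of the members from WT was -1.83 in dml2-3, where that of all genes tested was 0.42. It was -0.56 in rin/tdr4-1 beside 0.50 for all genes, -1.12 in rin-1 beside 0.23, and -0.81 in nor-1 beside 0.04. In tdr4-1 it was 0.0 beside -0.065, with the rule acting on this difference. These differences are a description with no test, since the rule picked genes for being high in WT at 34 dpa. The lowest mean of the 6 groups at 34 dpa was that of dml2-3 for 86 members, of rin-1 for 40 and of nor-1 for 30. The highest was that of WT for 50, of tdr4-1 for 43 and of rin/tdr4-1 for 40. These ranks were not counted over all genes tested. WT, rin/tdr4-1 and tdr4-1 also entered the rule, so nothing about the members is read from the ranks.

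Set against WT at 25 dpa, whose low level also entered the rule, the members at 34 dpa were higher by 1 or more for 69 genes in dml2-3 (5.72% of the genes tested) and lower for 18 (11.4%). They were higher for 149 in rin/tdr4-1 (6.35%) and lower for 0 (11.2%). In rin-1 104 were higher (6.18%) and 4 lower (14.6%), and in nor-1 120 were higher (6.13%) and 1 lower (23.4%). In tdr4-1 153 were higher (5.59%) and 0 lower (31.9%). The median distance of the members from WT at 25 dpa was 0.58 in dml2-3, 1.86 in rin/tdr4-1, 1.39 in rin-1, 1.81 in nor-1 and 2.46 in tdr4-1. The medians of all genes tested were -0.104, -0.005, -0.263, -0.493 and -0.605 in the same order. Between the double and the single rin mutant, 61 members were higher by 1 or more in rin/tdr4-1 than in rin-1 (13.8%), 30 were lower (9.25%), and 83 lay within 1. The members were chosen as high in rin/tdr4-1 at 34 dpa, so a lean towards rin/tdr4-1 is built into these counts and nothing is read from them.

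**Figure D3:**
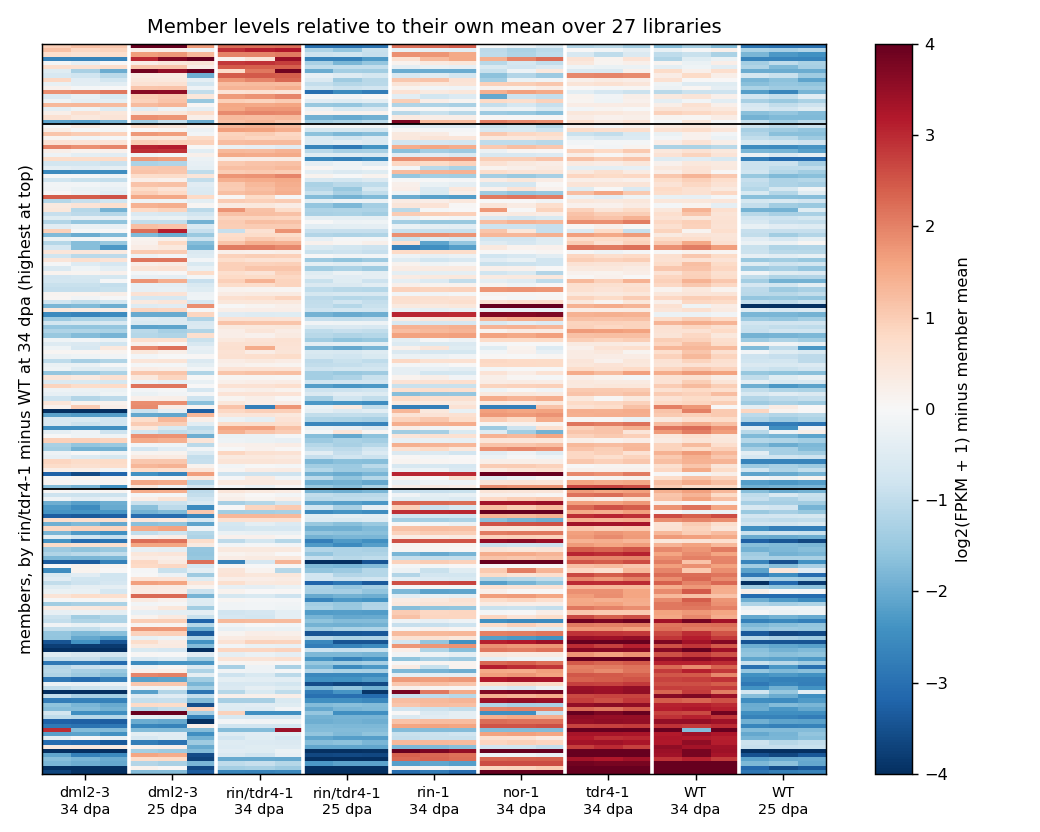
Level of each member in each library, as log2(FPKM + 1) minus the mean of that member over the 27 libraries (colour, cut at -4 and 4). Members run from those highest in rin/tdr4-1 relative to WT at 34 dpa at the top to the lowest at the bottom. Black lines part the 19 members higher by 1 or more, the 87 within 1 and the 68 lower by 1 or more.

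Whether the members were also higher at 34 dpa in another ripening mutant was addressed in dml2-3, whose libraries played no part in the rule. In dml2-3, 85 members fell between the stages and 6 rose, and 83 were not called (limma, adjusted p under 0.05 over 18906 genes). Of all genes tested, 21.8% fell and 12.0% rose. The median member changed by -0.54 on the log2 scale (quartiles -1.18 and -0.17), and the median of all genes was -0.08. The fall was called and 1 or more for 47 members (3.87% of genes tested). All 34 dpa libraries lay below all 25 dpa libraries for 65 members (22.7% of genes tested) and above for 6 (14.2%).

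These counts depended on the 25 dpa libraries. Without replicate 3, 137 members fell and 8 rose, with a median of -0.84, beside 29.3% and 15.1% of all genes. The fall was then 1 or more for 75 members (6.00%). All 34 dpa libraries then lay below both 25 dpa libraries for 148 members (43.7%) and above for 9 (23.7%). With replicate 3 as the only 25 dpa library, a comparison added after the data were seen, 55 fell and 54 rose, beside 21.6% and 19.3% of all genes, and the median was 0.04. In that comparison the lone library was assumed to vary like the other groups. A fit to the dml2-3 libraries alone called 31 falls and 2 rises, beside 6.57% and 5.51% of all genes. With size factors, which even out the shift of all genes, 83 fell and 7 rose, beside 16.6% and 16.4% of all genes.

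**Figure D4:**
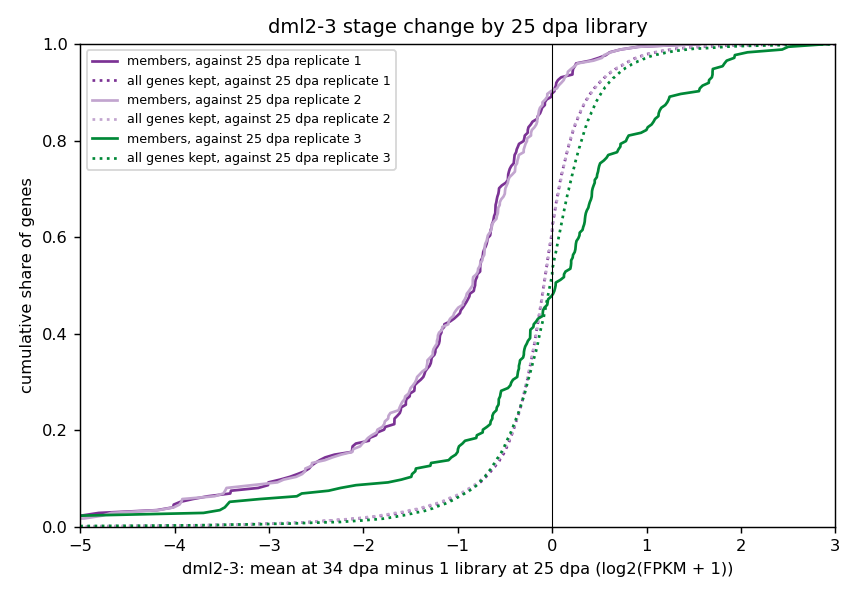
Stage change in dml2-3, as the mean log2(FPKM + 1) of the 3 libraries at 34 dpa minus the value in 1 library at 25 dpa (x axis), with the cumulative share of genes (y axis). Solid lines are the members and dotted lines all genes tested, in 1 colour for each 25 dpa library. The lines of the members against replicates 1 and 2 lie to the left of those of all genes, and the line against replicate 3 crosses them.

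The 2 members with the largest falls in dml2-3 that met the rule for named genes were Solyc11g010520.1 and Solyc09g014750.1. Solyc11g010520.1 was listed at 0 in all 3 dml2-3 libraries at 34 dpa, against 48.9, 80.3 and 110 FPKM at 25 dpa (limma adjusted p = 1.23e-08, 3.91e-08 without replicate 3 at 25 dpa, 4.33e-10 to 0.00156 over the alternatives). In rin/tdr4-1 it had 5.77, 7.73 and 66.2 FPKM at 34 dpa, against 0, 0 and 0.29 FPKM at 25 dpa. In WT it had 1.69, 3.39 and 4.11 FPKM at 34 dpa and was listed at 0 in all 3 libraries at 25 dpa. The stages thus stood in opposite order in dml2-3 and in both other genotypes.

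Solyc09g014750.1 had 1.82, 0.6 and 0 FPKM in dml2-3 at 34 dpa, against 56.3, 44.1 and 302 FPKM at 25 dpa. The change was -5.80 on the log2 scale (SE 0.63, adjusted p = 4.11e-07 by limma). A fit to the dml2-3 libraries alone gave a limma adjusted p of 0.016. This gene had 5.54, 15.9 and 56.0 FPKM in rin/tdr4-1 at 34 dpa, against 0, 0.54 and 0.5 FPKM at 25 dpa. All 3 rin-1 libraries listed it at 0. Replicate 3 was the highest library of dml2-3 at 25 dpa and of rin/tdr4-1 at 34 dpa for both this gene and Solyc11g010520.1, and without that dml2-3 library the change was -4.94.

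Few members were called as rising with age in dml2-3, both with all libraries and without replicate 3 at 25 dpa. This rested on replicates 1 and 2 at 25 dpa, since against replicate 3 alone the median change of the members was 0.04. Solyc09g091430.4 had 38.8, 38.5 and 42.6 FPKM at 34 dpa, against 20.7, 20.6 and 11.95 FPKM at 25 dpa, a change of 1.17 on the log2 scale (SE 0.17, adjusted p = 2.65e-05 by limma). Without replicate 3 at 25 dpa the change was 0.92 (SE 0.15, adjusted p = 5.01e-05 by limma). A fit to the dml2-3 libraries alone, all kept, gave a limma adjusted p of 0.0311. In rin/tdr4-1 this gene had 6.59, 11.5 and 6.13 FPKM at 34 dpa, against 1.23, 0.98 and 1.17 FPKM at 25 dpa. In WT it had 5.07, 4.88 and 5.94 FPKM at 34 dpa, against 1.30, 1.33 and 1.25 FPKM at 25 dpa. It was thus higher at 34 dpa in all 3 genotypes with both stages, and at both stages its dml2-3 libraries lay above those of rin/tdr4-1 and WT. Its level in rin-1 was 0.69 ± 0.159 FPKM (mean ± SD, n = 3), under every library of rin/tdr4-1.

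Solyc01g100370.3 had 127, 135 and 128 FPKM in dml2-3 at 34 dpa, against 110, 113 and 23.2 FPKM at 25 dpa, a change of 0.96 on the log2 scale (SE 0.33, adjusted p = 0.0298 by limma). Replicate 3 was the low library at 25 dpa, and without it the change was 0.22. The call ended in a fit to dml2-3 alone (limma adjusted p = 0.382) and without any 1 of the 34 dpa libraries of dml2-3 (adjusted p = 0.0602, 0.074 and 0.067), within 2.2e-14 to 0.382 over the alternatives. In WT it was far more abundant, at 1138, 984 and 1011 FPKM at 34 dpa, against 51.3, 51.1 and 51.7 FPKM at 25 dpa.

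At 25 dpa the members read higher in dml2-3 than in WT, whose 25 dpa libraries were chosen as low. The group mean was higher by 1 or more for 111 members (7.27% of genes tested) and lower for 6 (7.23%), with a median of 1.46, and all genes had a median of 0.004. By library, 115, 117 and 66 members were higher in replicates 1, 2 and 3 (8.24%, 8.22% and 5.37% of genes tested), and 6, 4 and 14 were lower (10.1%, 9.67% and 8.18%). The mean of replicates 1 and 2 was higher for 117 members (8.25%) and lower for 4 (9.59%). Against rin/tdr4-1 at the same age, 104 members were higher by 1 or more in dml2-3 (9.36%) and 3 lower (6.19%), and without replicate 3 these were 110 (10.1%) and 6 (8.33%). The double mutant itself lay within 1 of WT at 25 dpa for 155 members, with 7 higher (1.78%), 12 lower (5.05%) and a median of 0.097. These differences are a description, since WT and rin/tdr4-1 at 25 dpa entered the rule.

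The loss of RIN alone was set against the loss of NOR at 34 dpa, 2 groups that the rule did not use. In rin-1, 67 members were lower than in nor-1 and 39 were higher, and 68 were not called (limma, adjusted p under 0.05). Of all genes tested, 12.6% were lower and 42.2% higher, so the members leaned the other way from the bulk of genes. The median difference was -0.26 for the members (quartiles -1.16 and 0.37) and 0.20 for all genes. After division by size factors, which removes the shift of all genes, 82 members were lower and 22 higher, beside 25.2% and 25.4% of all genes, and the medians were -0.50 and 0.003. With quantile scaling 71 were lower and 25 higher, beside 24.3% and 23.8%. Without replicate 3 of dml2-3 at 25 dpa in the shared fit, 86 members were lower and 51 higher, beside 2871 and 8871 of the 18906 genes tested. All rin-1 libraries lay below all nor-1 libraries for 84 members (17.5% of genes tested) and above for 52 (50.0%).

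Solyc08g066240.3 had 1.57, 2.03 and 1.54 FPKM in rin-1, against 769, 792 and 803 FPKM in nor-1, a difference of -8.19 on the log2 scale (SE 0.25, adjusted p = 2.22e-16 by limma). In rin/tdr4-1 it had 2.40, 2.34 and 2.49 FPKM at 34 dpa, against 0.02, 0.04 and 0.23 FPKM at 25 dpa, so that its rise in the double mutant ended far below the 2239 to 2701 FPKM of WT at 34 dpa. This member met the rule on a change between low levels. Solyc06g076540.1 had 117.1, 117.7 and 123.4 FPKM in rin-1, against 6892, 6041 and 6822 FPKM in nor-1, a difference of -5.77 (SE 0.36, adjusted p = 3.01e-11 by limma). The nor-1 libraries stood above all others for this gene, with WT at 138, 78.7 and 111 FPKM at 34 dpa.

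Among the members higher in rin-1, Solyc06g060840.1 had 410, 451 and 455 FPKM in rin-1, against 14.7, 18.3 and 22.2 FPKM in nor-1, a difference of 4.52 on the log2 scale (SE 0.25, adjusted p = 3.51e-12 by limma). It had 111, 91.2 and 94.2 FPKM in rin/tdr4-1 at 34 dpa, against 6.71, 8.42 and 5.92 FPKM at 25 dpa. Solyc10g080840.1 had 67.3, 66.2 and 60.5 FPKM in rin-1, against 8.77, 7.96 and 7.37 FPKM in nor-1, a difference of 2.86 (SE 0.19, adjusted p = 5.58e-11 by limma). Its level in nor-1 was below the 15.7 to 19.7 FPKM of WT at 25 dpa, and its level in tdr4-1, 484 ± 19.8 FPKM, was above the 344 ± 41.6 FPKM of WT at 34 dpa (SD, n = 3 each).

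**Figure D5:**
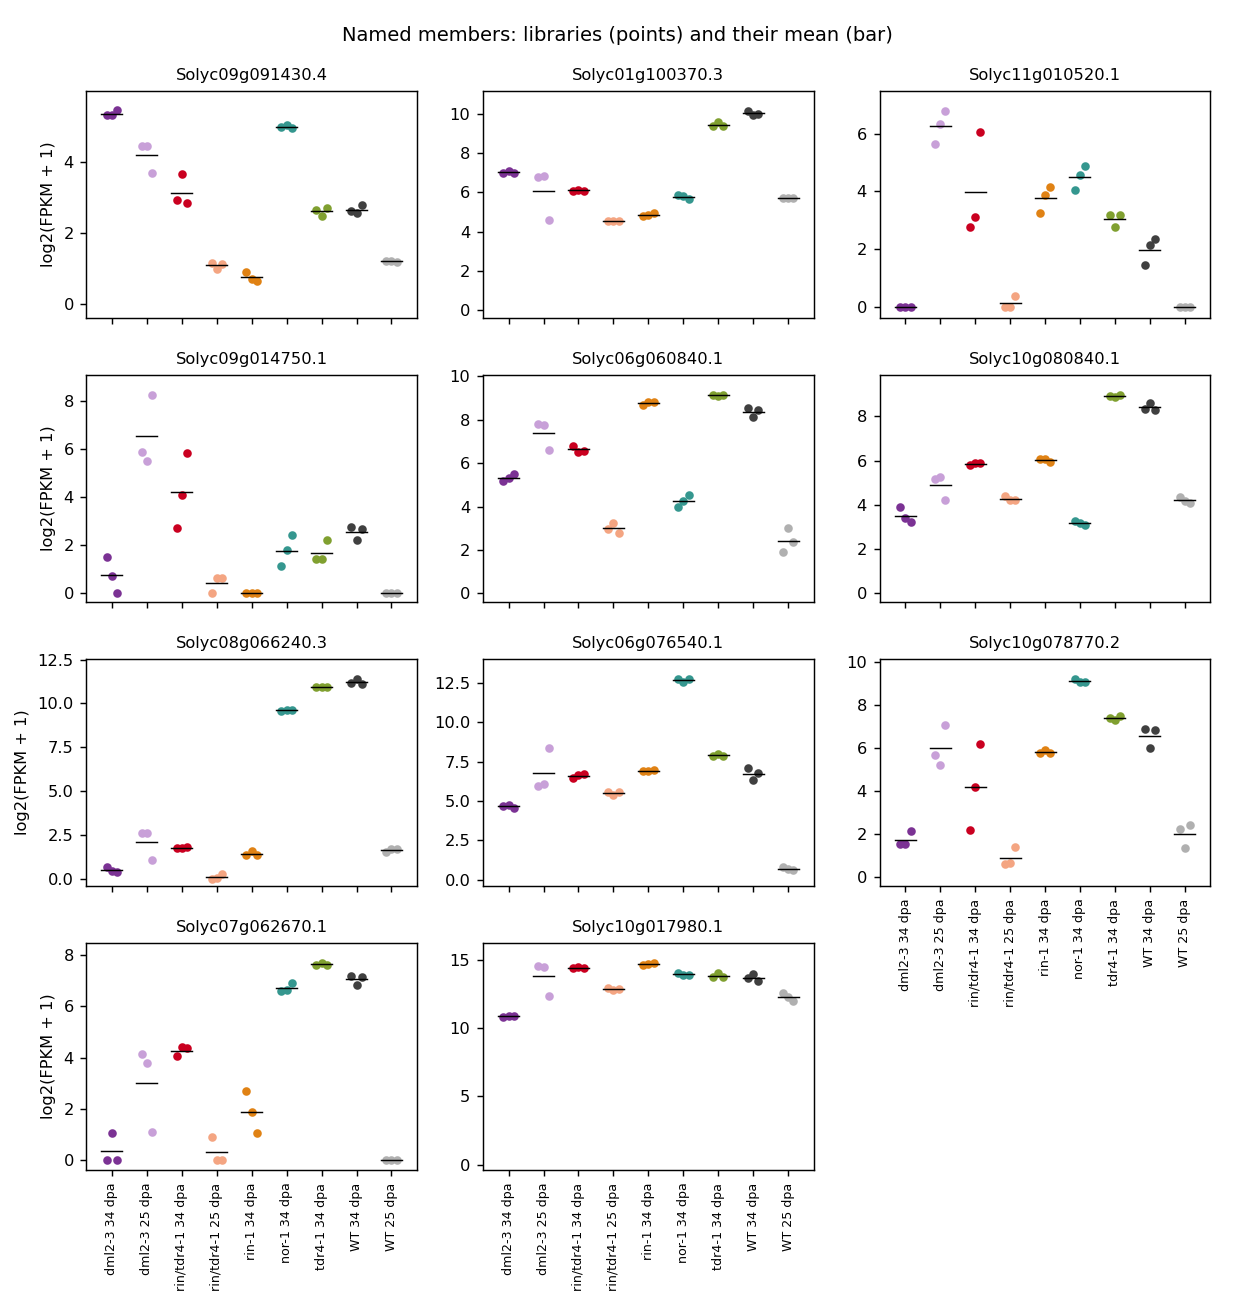
Levels of the members named in the text, as log2(FPKM + 1), in the 9 groups. Points are single libraries and bars the mean of their log2 values. Solyc08g066240.3 and Solyc06g076540.1 are far higher in nor-1 than in rin-1, and Solyc06g060840.1 and Solyc10g080840.1 the reverse.

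Members that were lower in rin-1 than in nor-1 were compared with members that fell with age in dml2-3. The group means of these contrasts share no library. The fit gave both contrasts the same estimate of the spread of each gene, so their calls are not independent. Of the 67 members lower in rin-1, 39 (58.2%) were among those that fell in dml2-3, which is 45.9% of the 85 falls. Of the 39 members higher in rin-1, 14 (35.9%) were. The share that fell was 48.9% over all members. It was 26.5% over all tested genes lower in rin-1 and 23.6% over those higher in rin-1. Without replicate 3 of dml2-3 at 25 dpa, 55 (82.1%) of the members lower in rin-1 and 24 (61.5%) of those higher in rin-1 fell, beside 78.7% of all members. The shares over all tested genes were then 36.5% and 30.1%. The overlap was not tested.

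At 34 dpa dml2-3 was also set against each of these mutants, with the same dml2-3 libraries as in its stage comparison. In dml2-3, 88 members were lower than in rin-1 and 32 higher (limma, adjusted p under 0.05), beside 22.8% and 41.7% of all genes tested, with a median of -0.51 for the members and 0.16 for all genes. Rescaled to equal totals (TPM), 76 were lower and 48 higher, beside 14.4% and 59.3%. Against nor-1, 99 members were lower and 28 higher, beside 16.9% and 56.4% of all genes, with medians of -0.89 and 0.38. With size factors these were 114 and 19, beside 33.1% and 33.6%. A difference of 1 or more downwards was called for 66 members against rin-1 (8.48% of genes tested) and for 78 against nor-1 (7.57%). Without replicate 3 of dml2-3 at 25 dpa in the shared fit, 98 members were lower than in rin-1 and 43 higher. This stood beside 4762 and 8485 of the 18906 genes tested. Against nor-1, 109 members were then lower and 40 higher, beside 3501 and 11149 genes.

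The members split by how far rin/tdr4-1 reached the WT level at 34 dpa. The 87 members within 1 of WT had median rises of 1.41 in rin/tdr4-1 and 1.67 in WT, and median means at 34 dpa of 31.7 FPKM in rin/tdr4-1 and 30.2 FPKM in WT. The 68 members lower by 1 or more had similar rises in rin/tdr4-1, with a median of 1.51, but a median rise of 4.29 in WT. Their median mean was 27.02 FPKM in rin/tdr4-1, against 147 FPKM in WT. The 19 members higher in rin/tdr4-1 had median rises of 3.00 in rin/tdr4-1 and 1.25 in WT, and median means of 41.2 FPKM in rin/tdr4-1 and 10.5 FPKM in WT. The groups were cut on the libraries that chose the members, and only the contrasts of other genotypes are read below.

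In rin-1 against nor-1, 41 of the 68 members lower in rin/tdr4-1 were lower in rin-1 and 11 higher, with a median difference of -0.99. Among the 87 members within 1, 24 were lower and 20 higher, with a median of -0.11. Among the 19 members higher in rin/tdr4-1, 2 were lower and 8 higher, with a median of 0.32. Of all genes tested, 12.6% were lower in rin-1 and 42.2% higher, and the 8 of 19 lay near the latter share. The fall with age in dml2-3 was called for 37 of the 68, 40 of the 87 and 8 of the 19 members, beside 21.8% of all genes tested. Without replicate 3 at 25 dpa it was called for 58, 66 and 13, beside 29.3%. Whether the 3 groups of members differed in these contrasts was not tested.

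Of the members, 39 had a mean of 100 FPKM or more in rin/tdr4-1 at 34 dpa, and 68 had so in WT. Together the members held 3.98% to 4.07% of the summed FPKM of a library in rin/tdr4-1 at 34 dpa, against 1.32% to 1.38% at 25 dpa, and 7.30% to 8.35% in WT at 34 dpa, against 0.868% to 1.12% at 25 dpa. In dml2-3 they held 0.984% to 1.03% at 34 dpa, against 3.77%, 3.67% and 1.38% in replicates 1, 2 and 3 at 25 dpa. The most abundant member by its mean in rin/tdr4-1, Solyc10g017980.1, was singled out after its values were seen. It had 21270, 22358 and 21297 FPKM in rin/tdr4-1 at 34 dpa, against 7974, 7141 and 7648 FPKM at 25 dpa. Without it the members held 1.75% to 1.77% of the summed FPKM in rin/tdr4-1 at 34 dpa, against 0.543% to 0.551% at 25 dpa. In dml2-3 they then held 0.769% to 0.815% at 34 dpa, against 1.44%, 1.45% and 0.829% in replicates 1, 2 and 3 at 25 dpa, so that most of the difference for replicates 1 and 2 lay in this 1 gene. In dml2-3 it had 1846, 1930 and 1916 FPKM at 34 dpa, against 23821, 22661 and 5341 FPKM at 25 dpa, a change of -2.91 on the log2 scale (SE 0.35, adjusted p = 1.51e-06 by limma). Without replicate 3 at 25 dpa it was -3.61 (SE 0.145, adjusted p = 5.69e-14 by limma). Its level in rin-1 was 27060 ± 1168 FPKM, and its difference from nor-1, at 16110 ± 1007 FPKM, was 0.75 (SE 0.35, adjusted p = 0.0735 by limma). The rin-1 libraries, at 25791 to 28091 FPKM, all lay above the nor-1 libraries, at 15426 to 17265 FPKM. The SE came from the spread over all groups, including dml2-3 at 25 dpa with its low replicate 3. It is not the spread of rin-1 and nor-1 alone.

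By the chromosome number that the identifiers carry, members came from each of chromosomes 1 to 12. They made up 0.645% of the tested genes on chromosome 11 up to 1.31% on chromosome 8, beside 0.920% of all genes tested. In the order of the identifiers 8 pairs of members stood next to each other among the tested genes, 3 of them on chromosome 8. Neither the spread over chromosomes nor the pairs were tested.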

How the data were processed

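The authors deposited 1 table of FPKM values with 1 column per library. The submitters' processing notes list Trimmomatic, STAR 2.5.4b, RSEM and DESeq2 with neither role nor order, and the sources used here do not give build or annotation. Groups and replicate numbers came from the sample titles, and 0 columns lacked a sample. Read numbers could not be recovered from the low FPKM values, whose commonest step covered 4.84% of them. Identical libraries numbered 0. Of 34075 identifiers, 0 were found among 41476 RefSeq genes (SLM_r2.1), with or without version, so gene lists and markers could not be filled.

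The fit took 18906 genes reaching 1 FPKM in 3 or more libraries, as log2(FPKM + 1), with 1 mean per group over 27 libraries, using limma 3.58.1 in R 4.3.3 (trended empirical Bayes), tested on simulated data. The scale understates changes of low genes. P-values were adjusted by Benjamini-Hochberg over all 18906 genes and called under 0.05. Tests were limited to 4 contrasts between groups outside the rule. Named members were called members whose higher group averaged 10 FPKM or more and whose libraries did not overlap, namely the 2 largest rises and 2 largest falls of the dml2-3 stage contrast and of rin-1 against nor-1. As a description, the 2 with the largest smaller rise and at least 10 FPKM in both groups at 34 dpa were added. Alternatives covered the pseudocount, filter, scaling, replicate block, fits to 2 groups and leaving out libraries. Members and lists were chosen with earlier results of these data known.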

Additional observations from a re-analysis of the deposited data

How the results depend on the processing

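Without depth, precision rests on 3 libraries a group. The stage comparison in dml2-3 (85 falls, 6 rises among the members) gave 31 falls and 2 rises in a fit to these groups alone, 55 and 54 with replicate 3 as the only 25 dpa library (added after the data were seen), and 69 to 137 falls and 5 to 8 rises with 1 library left out, the highest count of falls being without replicate 3 at 25 dpa. The cause was not tested. Under the pseudocount, filter and scaling alternatives falls ran from 70 to 84 of the members tested. Members higher in rin-1 than in nor-1 (39, beside 42.2% of all genes) were 22 with size factors (25.4%) and 25 with quantile scaling (23.8%). Members higher in dml2-3 than in nor-1 (28, beside 10656 of the 18906 genes tested) were 17 with quantile scaling (beside 6696). The shares over all genes thus fell as well, and the cause was not tested. Of 120 alternative values of named members, 116 kept their direction and call, and 4, all of Solyc01g100370.3, kept the direction only. The rule found 270 genes with a pseudocount of 0.1 (171 of the 174 members among them), 236 with size factors (168), 168 with TPM (168), and 168 to 180 with 1 library left out. Same-numbered libraries of the groups tested correlated at -0.034 to 0.1001 in their deviations, so the numbers do not pair them. With the replicate block, 85 members fell and 6 rose in dml2-3, 68 had lower and 39 had higher levels in rin-1 than in nor-1, and dml2-3 had 87 lower and 34 higher against rin-1 and 100 lower and 28 higher against nor-1.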
